A study of Mus musculus with 2 samples.

Results

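The integrated stress response slows translation through phosphorylation of the initiation factor eIF2α by a small family of kinases, and the same event favours translation of ATF4, a bZIP transcription factor. ATF4 is known to raise genes of amino acid uptake, of serine, asparagine and proline synthesis, and of tRNA charging, together with stress factors such as CHOP and GADD34. Because ATF4 is controlled to a large part at the level of translation, its own mRNA need not follow its activity, and the mRNAs of its targets are the usual transcript readout. Here 37 such genes were taken from a list of names, written with earlier results of these data known and with no threshold on a measured value, and all 37 were found among the 21911 genes of the table.

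The data were 2 RNA sequencing libraries of 4T1, a mouse mammary carcinoma line that forms lung metastases. One library came from cells kept for 48 h with PBS and the other from cells kept for 48 h with potassium oxalate, given as 20 µM in the sample characteristics and as 20 mM in the treatment protocol. Both cultures were kept in DMEM with fetal bovine serum. The study made the comparison to look for genes that respond to oxalate in breast cancer cells. The epithelial markers Krt8, Krt18, Krt14, Epcam and Cdh1 had 74.61 to 401.94 FPKM (mapped fragments normalised to transcript length and to sequencing depth) under PBS, whereas the leukocyte markers Ptprc and Cd3e were listed at 0 in both libraries. The depth, estimated from the steps between low FPKM values, was about 56800000 reads for PBS and 36500000 for oxalate. Each condition has 1 library, so the spread between replicates is unknown and the values that follow compare these libraries, not tested conditions. The RNA was pooled from whole cultures, so a difference in every cell and one in a share of the cells cannot be told apart.

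Differences are log2((oxalate + 1)/(PBS + 1)) of the FPKM values, a scale that understates the change of low genes. A gene was counted as higher or lower from 1.2-fold on, among the genes that averaged 1 FPKM or more over both libraries. Of the 37 genes 35 passed this filter, and Vldlr and Fgf21 did not. Of the 35, 3 genes were higher with oxalate at least 1.2-fold (8.57%) and 0 were lower, beside 4.75% higher and 5.19% lower among all 10267 genes tested. The 3 genes were Ppp1r15a, Cebpb and Shmt2. The other 32 lay within 1.2-fold. The median log2 difference of the 35 was 0.015, with 18 above 0 and 17 below, beside a median of 0.0031 for all genes tested. Of all genes tested, 50.6% were above 0. At 1.5-fold, Ppp1r15a alone was left, beside 0.935% higher and 1.05% lower among all genes. At 2-fold 0 of the 35 were left in either direction, beside 0.292% higher and 0.36% lower.

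**Figure D1:**
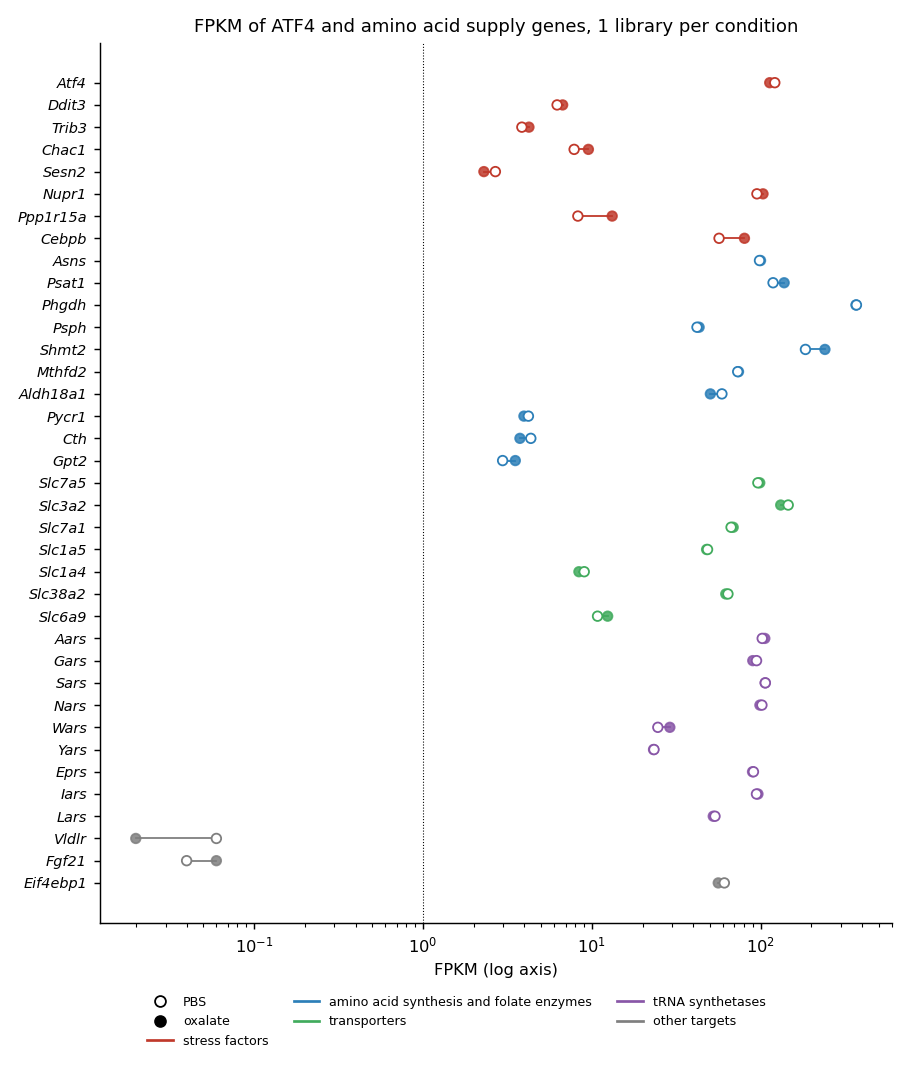
FPKM (log axis) of the 37 genes in the PBS library (open circles) and the oxalate library (filled circles), 1 library each, with colours for the 5 groups and a dotted line at 1 FPKM. Most pairs of circles overlap, the widest gaps above 1 FPKM are those of Ppp1r15a, Cebpb and Shmt2, and Vldlr and Fgf21 lie far below the line.

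Before the values of each group, the promoters were searched for sequence elements. Many ATF4 targets carry a C/EBP-ATF response element (CARE), whose core was searched for as TGATGNAA on both strands. The windows ran from 250 bases before to 50 bases after each RefSeq start site (GRCm38.p6). A window was found for 30 of the 37 genes; Cth, Slc7a5, Slc1a5, Nars, Wars, Lars and Eif4ebp1 had none. The core was found in 12 of the 30 genes (40%), namely Trib3, Chac1, Nupr1, Asns, Pycr1, Slc1a4, Aars, Gars, Yars, Iars, Vldlr and Fgf21, against 4.51% of 27025 genes with a window. By group, it was found in 3 of 8 stress factors, 2 of 9 enzymes, 1 of 5 transporters and 4 of 6 tRNA synthetases. The genes were listed by name as ATF4 targets, many of which carry this element. Their share above that of all genes therefore cannot be told apart from that choice. The cAMP response element TGACGTCA, which ATF and CREB proteins bind, was found in 1 of the 30 genes, Ppp1r15a, and in 2.03% of all genes with a window. None of the 30 genes held both motifs. A match describes letters in a window, not a bound site. Stretches of 60 bases are shown for the matches that lie outside annotated exons. They let the CARE core be compared between Chac1, somewhat higher with oxalate, Gars and Pycr1, which were not, and the barely detected Fgf21. Ppp1r15a, the gene with the largest difference, has no CARE core in its window and is shown for its TGACGTCA match. The stretches read 5′ to 3′ along the strand of the gene, with the match in capitals. It is TGATGNAA or its reverse complement in the first 4 and TGACGTCA in the last.
Chac1: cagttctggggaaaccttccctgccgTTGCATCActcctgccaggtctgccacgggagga
Fgf21: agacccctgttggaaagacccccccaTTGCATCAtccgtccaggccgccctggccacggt
Pycr1: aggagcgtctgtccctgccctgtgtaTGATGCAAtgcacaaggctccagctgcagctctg
Gars: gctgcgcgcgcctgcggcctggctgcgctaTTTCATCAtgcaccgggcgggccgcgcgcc
Ppp1r15a: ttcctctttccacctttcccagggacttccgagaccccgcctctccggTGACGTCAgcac
On GRCm38 these are chr2:119351023-119351082 (plus strand), chr7:45615596-45615655 (minus strand), chr11:120643818-120643877 (minus strand), chr6:55037941-55038000 (plus strand) and chr7:45526269-45526328 (minus strand), all upstream of the RefSeq start site of the gene. The match began 193 bases upstream of that site in Chac1, 139 in Fgf21, 103 in Pycr1, 30 in Gars and 12 in Ppp1r15a. Chac1, Fgf21 and Pycr1 hold the same variant of the core, TGATGCAA on one or the other strand, and Gars holds TGATGAAA. Of the genes that passed the filter, the 10 with the core had a median log2 difference of 0.024 (from -0.094 to 0.25, 6 above 0). The 18 with a window but no core had one of 0.028 (from -0.22 to 0.62, 10 above 0). Beside these counts, 50.6% of all genes tested were above 0. The medians with and without the core were thus close, and Ppp1r15a, Cebpb and Shmt2 had no match to it in these windows. A core outside the windows would not be counted, so this split cannot separate genes with the element from genes without it.

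The 8 stress factors had a median log2 difference of 0.11, with 6 above 0 and 2 below, and held 2 of the 3 genes that were higher with oxalate. Among all genes tested, 50.6% were above 0 and 4.75% were higher at least 1.2-fold. Ppp1r15a (ENSMUSG00000040435, chromosome 7, 45522916 to 45526268, minus strand) encodes GADD34, which guides a phosphatase to eIF2α and so ends the stress response. It was at 8.28 FPKM under PBS and 13.22 FPKM under oxalate, 1.53-fold higher (log2 difference 0.62), and 87 of the 10267 genes tested had a larger positive difference. Its estimated 867 and 889 reads gave a log2 ratio without pseudocount of 0.67, with an exact (Clopper-Pearson) 95% interval from 0.54 to 0.81 that covers counting error only. All counting intervals below are likewise those of the ratio without pseudocount. They need not centre on the log2 difference given beside them.

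Cebpb (ENSMUSG00000056501, chromosome 2, 167688915 to 167690418, plus strand) encodes C/EBPβ, a bZIP factor that pairs with ATF4 and also acts in inflammation and mammary growth. It was at 56.74 FPKM under PBS and 80.21 FPKM under oxalate, 1.41-fold higher (log2 difference 0.49), and 143 genes had a larger positive difference. Its counting interval ran from 0.44 to 0.56. Next came Chac1, which encodes an enzyme that breaks down glutathione and is a well known ATF4 target. It was at 7.87 FPKM under PBS and 9.56 under oxalate, 1.19-fold higher and just short of the 1.2-fold count. Without pseudocount its log2 ratio was 0.28, with a counting interval from 0.12 to 0.44.

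The remaining stress factors lay within 1.2-fold. The counting intervals of Atf4 (-0.15 to -0.049), Nupr1 (0.053 to 0.19) and Sesn2 (-0.44 to -0.019) excluded 0, as did those of 48.8% of all genes tested. Atf4 itself (ENSMUSG00000042406, chromosome 15, 80255184 to 80257541, plus strand) was at 121.29 FPKM under PBS and 113.19 FPKM under oxalate, a log2 difference of -0.099. With PBS its level was the highest of the 8. Nupr1, which encodes a small stress-induced nuclear protein, was also high, at 95.08 and 103.28 FPKM. Ddit3, which encodes the death-promoting factor CHOP, was at 6.24 and 6.73 FPKM, and Trib3, which encodes a pseudokinase that restrains ATF4 and AKT, at 3.86 and 4.25 FPKM. The counting intervals of these last 2 genes, -0.17 to 0.39 and -0.073 to 0.35, included 0, and at this depth neither gene showed a detectable difference. Ddit3 shares 68 exon bases with Mars on the opposite strand, which was at 50.70 FPKM in both libraries. Whether reads were counted by strand is not given, so part of the Ddit3 reads cannot be told apart from those of Mars. This also limits the ratio of Atf4 to Ddit3 given below. Sesn2, which encodes a leucine sensor that restrains mTORC1, had the lowest level of the 8, with 2.69 FPKM under PBS and 2.30 FPKM under oxalate (log2 difference -0.16). Atf4 mRNA was 19.4 times the level of Ddit3 mRNA under PBS and 16.8 times with oxalate, on the FPKM scale.

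**Figure D2:**
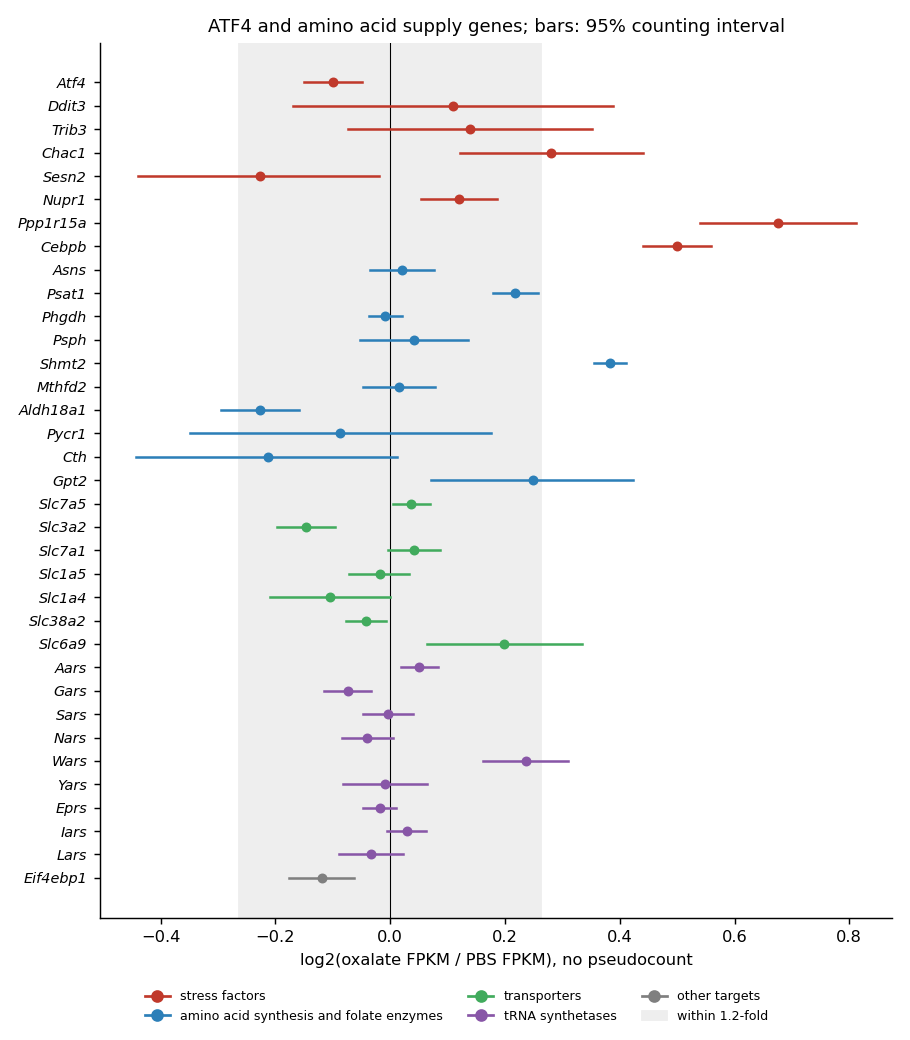
Log2 ratio of oxalate to PBS FPKM without pseudocount for the 35 genes that passed the filter, with bars for the exact 95% interval of the estimated reads (counting error only) and grey for differences within 1.2-fold. The bars of Ppp1r15a, Cebpb and Shmt2 lie wholly to the right of the grey band, and no bar lies wholly to its left.

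Among the 10 enzymes of amino acid synthesis and folate metabolism the median log2 difference was 0.018, with 6 above 0 and 4 below. The share above 0 was 50.6% among all genes tested. Serine synthesis was expressed at a high level in both libraries. Phgdh, whose product takes 3-phosphoglycerate out of glycolysis in the first step of that pathway, was at 369.01 FPKM under PBS and 366.78 under oxalate, above 98.1% of the genes tested. Psat1, which encodes the transaminase of the next step, was at 118.46 FPKM under PBS and 137.78 under oxalate, a log2 difference of 0.22 (counting interval 0.18 to 0.26). Psph, which encodes the phosphatase of the last step, was at 42.01 and 43.23 FPKM. The order Phgdh, Psat1, Psph was the same in both libraries, with Phgdh at 8.78 times the level of Psph under PBS and 8.48 times with oxalate.

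Serine feeds mitochondrial one-carbon metabolism through Shmt2, which passes a carbon unit from serine to folate and yields glycine. Shmt2 (ENSMUSG00000025403, chromosome 10, 127517123 to 127522444, minus strand) was at 184.22 FPKM under PBS and 240.23 FPKM under oxalate, 1.30-fold higher (log2 difference 0.38, counting interval 0.36 to 0.41), and 240 genes had a larger positive difference. Mthfd2, whose product works on the folate that Shmt2 loads and is itself a frequent ATF4 target, was at 73.18 and 73.96 FPKM. The level of Shmt2 relative to Mthfd2 was therefore 2.52 under PBS and 3.25 under oxalate. Asns, the asparagine synthetase which amino acid shortage is known to raise, was at 98.48 and 99.87 FPKM, with a counting interval from -0.035 to 0.076.

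The enzymes of proline, cysteine and alanine synthesis lay on both sides of 0. Aldh18a1, which encodes the enzyme that commits glutamate to proline, had 58.99 FPKM under PBS and 50.40 FPKM under oxalate, the lowest log2 difference of the 35 genes at -0.22 (counting interval -0.30 to -0.16). Pycr1, which encodes the enzyme that closes the proline ring pathway in mitochondria, was far lower in level, at 4.22 and 3.97 FPKM. Cth, which encodes the enzyme that releases cysteine from cystathionine, was at 4.36 FPKM under PBS and 3.76 under oxalate. Gpt2, which encodes the mitochondrial alanine transaminase, was at 2.97 and 3.53 FPKM. Of these 3 genes of low level, the counting intervals of Pycr1 and Cth included 0 and that of Gpt2, from 0.071 to 0.42, did not.

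The 7 amino acid transporters had a median log2 difference of -0.018, which became 0.0022 when both libraries were scaled to the same FPKM sum. All 7 lay within 1.2-fold, as did 90.1% of all genes tested. Slc7a5, the light chain of the leucine exchanger LAT1, was at 96.31 FPKM under PBS and 98.80 under oxalate. Slc3a2, the heavy chain CD98 that brings Slc7a5 and related exchangers to the surface, was at 145.60 FPKM under PBS and 131.47 under oxalate, a log2 difference of -0.15. The FPKM of the heavy chain relative to Slc7a5 was accordingly 1.51 under PBS and 1.33 under oxalate. Slc7a1, the arginine and lysine carrier, stood at 66.84 and 68.79 FPKM. The neutral amino acid carriers Slc1a5 and Slc38a2, which bring glutamine into the cell, were at 48.50 and 47.88 FPKM and at 64.04 and 62.18 FPKM. Slc1a4, a carrier of alanine and serine, was at 9.03 and 8.40 FPKM, and the glycine carrier Slc6a9 at 10.83 and 12.43 FPKM. Slc6a9 had the largest log2 difference of the 7, at 0.18.

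The 9 cytosolic tRNA synthetases had a median log2 difference of -0.0083, which became 0.012 when both libraries were scaled to the same FPKM sum, and 8 of 9 lay within 1.1-fold, as did 69.5% of all genes tested. Each of these enzymes loads 1 amino acid onto its tRNA, except the glutamate and proline enzyme Eprs, which loads both. Aars was at 102.18 FPKM under PBS and 105.86 under oxalate, Sars at 106.62 and 106.36 FPKM, and Nars at 101.76 and 99.01 FPKM. Gars had 94.58 and 89.84 FPKM, Iars 94.50 and 96.40 FPKM, and Eprs 90.67 and 89.55 FPKM. These 6 genes had nearly the same level in each library, whereas Lars (53.68 and 52.43 FPKM), Wars (24.63 and 29.01 FPKM) and Yars (23.37 and 23.23 FPKM) were lower. Wars, the tryptophan enzyme, which interferon is also known to raise, was the exception, with a log2 difference of 0.23 (counting interval 0.16 to 0.31). The summed FPKM of the 9 genes was 691.99 under PBS and 691.69 under oxalate.

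Of the other targets, Eif4ebp1, which encodes a brake on cap-dependent translation, was at 60.97 FPKM under PBS and 56.12 FPKM under oxalate, a log2 difference of -0.12. Vldlr, a lipoprotein receptor, was at 0.06 and 0.02 FPKM, an estimated 11 and 2 reads. Fgf21, a secreted hormone of starvation and mitochondrial stress, was at 0.04 and 0.06 FPKM, an estimated 2 reads in each library. At such counts no difference of these 2 genes was detectable.

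**Figure D3:**
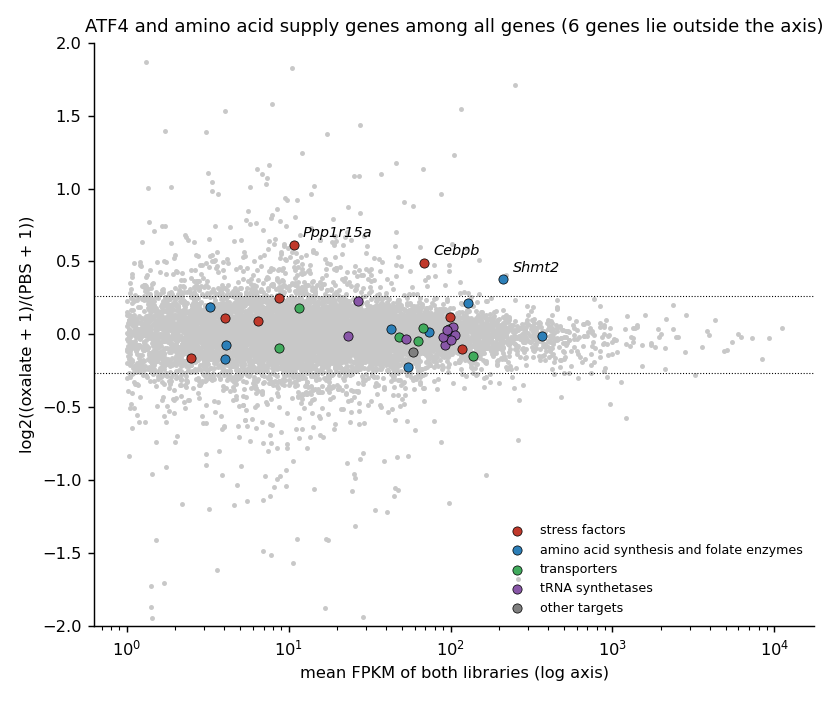
Log2 difference against the mean FPKM of both libraries (log axis) for the 10267 genes tested (grey) and the 35 genes described here (colours), with dotted lines at 1.2-fold. Ppp1r15a, Cebpb and Shmt2 lie above the upper line and the other 32 lie between the lines; 6 grey genes fall outside the axis.

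The counting intervals excluded 0 for 19 of the 35 genes (54.3%) and for 48.8% of all genes tested with a known length. GC content moved with the difference across all genes, with medians of -0.066 in the bottom and 0.028 in the top of 10 GC bins. Ppp1r15a (55.2% GC), Cebpb (67.2%) and Shmt2 (57.3%) lay in bins with medians of 0.034, 0.028 and 0.029, beside their own log2 differences of 0.62, 0.49 and 0.38. The part of GC content in these differences was not tested. All 3 genes also share exon bases with a gene on the opposite strand, as 6 of the 37 genes and 18.8% of all genes tested do, and the sources used here do not give whether reads were counted by strand. Ppp1r15a shares 12 bases with Tulp2 (0.03 and 0 FPKM) and Shmt2 shares 32 bases with Ndufa4l2, which was listed at 0 in both libraries. Cebpb shares 312 bases, 20.7% of its exon bases, with Tmem189, which was at 19.36 FPKM under PBS and 22.45 FPKM under oxalate, so part of its reads cannot be told apart from those of Tmem189. Among all genes with such an overlap 5.81% were higher at least 1.2-fold. Slc6a9 shares 27.8% of its exon bases with Ccdc24 (5.57 and 5.39 FPKM) and 46 bases with B4galt2 (27.72 and 28.26 FPKM), both on the opposite strand. Yars shares 30 bases with C77080 (35.68 and 54.73 FPKM), also on the opposite strand. Aars shares 14.3% of its exon bases with Exosc6 (47.99 and 43.89 FPKM) on the same strand, where counting by strand would not separate the reads. The part of these overlaps in the differences was not tested.

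**Figure D4:**
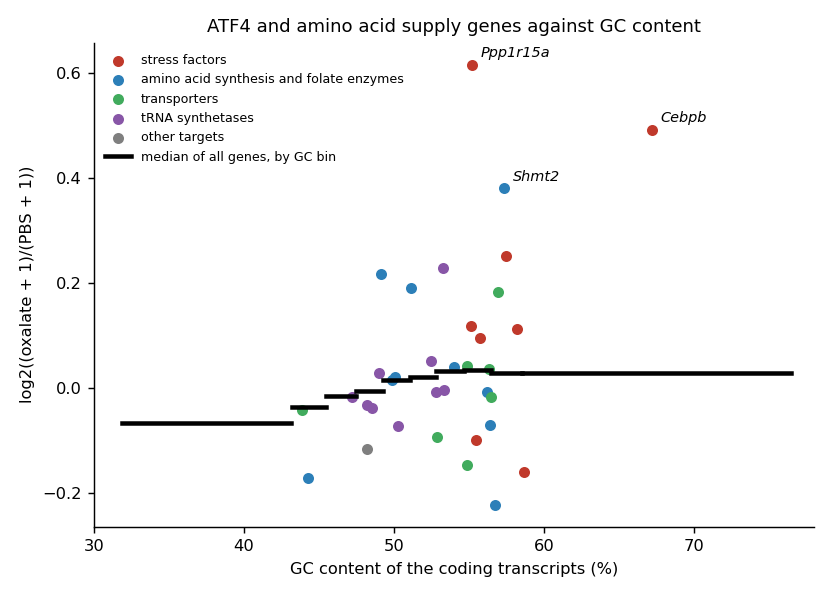
Log2 difference of the 35 genes against the GC content of their coding transcripts, with black bars for the median of all genes tested in each of 10 GC bins. The bars run from -0.066 to 0.034, and Ppp1r15a, Cebpb and Shmt2 lie above the bars of their bins.

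Further genes of the pathway came from 7 lists with 126 genes, of which 106 passed the filter. At the 1.2-fold count, 7 of the 106 were higher (6.60%) and 3 lower, beside 4.75% higher and 5.19% lower among all genes tested. Their median log2 difference was 0.015. All 15 genes of the eIF2 kinases and eIF2 machinery lay within 1.2-fold, as did 90.1% of all genes tested. The kinases that phosphorylate eIF2α were at 19.51 and 19.76 FPKM (Eif2ak1, the heme-regulated kinase), 9.17 and 8.28 FPKM (Eif2ak2, which senses double-stranded RNA), 7.11 and 7.57 FPKM (Eif2ak3, the endoplasmic reticulum kinase PERK) and 13.04 and 13.76 FPKM (Eif2ak4, the amino acid sensor GCN2), under PBS and oxalate in that order. Ppp1r15b, the constitutive relative of Ppp1r15a, had 22.38 FPKM under PBS and 22.75 under oxalate.

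Among 11 detected genes of the wider ATF4 network the median log2 difference was -0.055, with 6 below 0 and 5 above. For all genes tested the share above 0 was 50.6%. The 5 above 0 were Lonp1, Hspa9, Cebpd, Herpud1 and Vegfa, from 0.022 (Vegfa) to 0.11 (Lonp1), named after their values were seen. Atf5, a bZIP factor translated in the same way as ATF4, was at 7.95 FPKM under PBS and 5.83 FPKM under oxalate, a log2 difference of -0.39 in the direction opposite to Cebpb, and it shares exon bases with Il4i1 and Nup62 on the opposite strand. Atf3, a stress-induced repressor, had 3.30 and 2.88 FPKM, and Cebpg, a partner of ATF4, 9.30 and 8.74 FPKM. Ddit4, an inhibitor of mTORC1, stood at 17.71 and 16.29 FPKM, and Slc7a11, the cystine carrier, at 9.65 and 9.25 FPKM. The 14 other genes of cytosolic tRNA charging all lay within 1.1-fold, beside 69.5% of all genes tested, with a median of -0.026.

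Differences of at least 1.5-fold were seen in 2 of the 106 genes, 1 higher and 1 lower, beside 0.935% higher and 1.05% lower among all genes. Slc38a1, a glutamine carrier related to Slc38a2, was at 8.97 FPKM under PBS and 18.45 FPKM under oxalate, a log2 difference of 0.96, beside -0.042 for Slc38a2. Pars2, the mitochondrial proline tRNA synthetase, had 4.30 and 1.85 FPKM, a log2 difference of -0.90. Slc38a1 and Pars2 have 4 and 3 coding transcripts, and how reads were shared among them was not given in the sources used here.

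**Figure D5:**
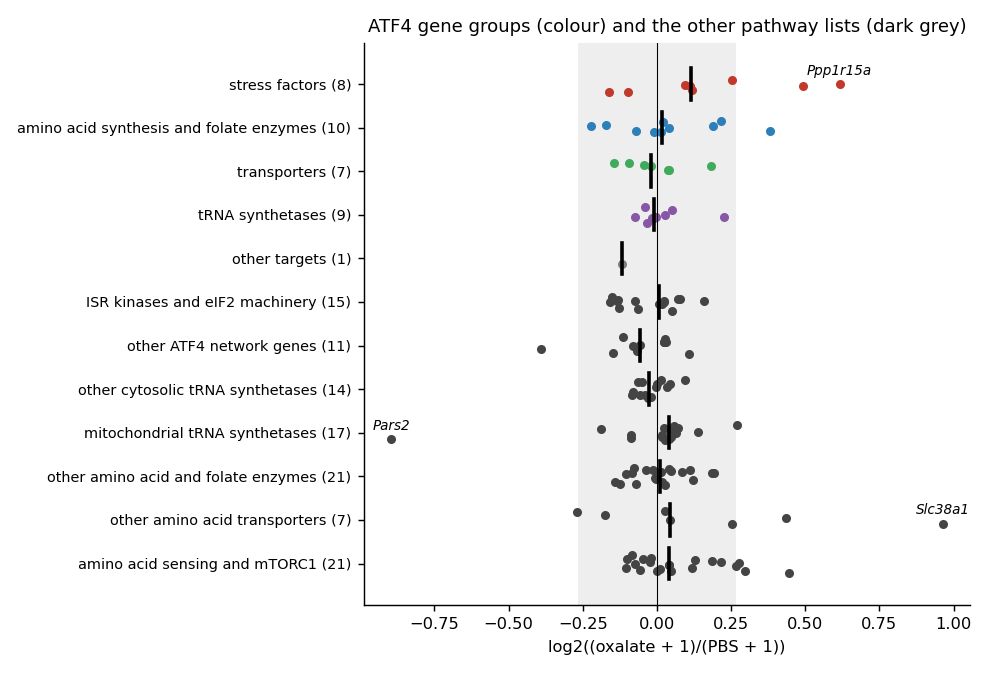
Log2 difference of each gene past the filter in the 5 groups described here (colours) and the 7 other pathway lists (dark grey), with the number of genes in parentheses, black bars for medians and grey for differences within 1.2-fold. The list medians run from -0.12 to 0.11 and single genes, named from 1.5-fold on, reach from -0.90 to 0.96.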

How the data were processed

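Polyadenylated RNA of 4T1 cells was sequenced by the study on an Illumina HiSeq2500. The authors deposited FPKM values rounded to 2 decimals, 1 column per library. Bowtie2 2.2.8 and TopHat2 2.1.1 are named in the submitters' processing notes; the quantification tool, genome build and annotation are not given in the sources used here. Identifiers were given symbols, positions, exons and transcript lengths from GENCODE M21 (GRCm38), with 21848 of 21911 matched. From the FPKM values, log2((oxalate + 1)/(PBS + 1)) was computed at a mean FPKM of at least 1, with no test, since each condition has 1 library.

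Reads were estimated as FPKM times length in kb, divided by the value of 1 read (0.0176 for PBS and 0.0274 for oxalate). That value was fitted on 88 and 73 low values of genes with 1 transcript of at most 700 bases. Where a gene has several coding transcripts, their mean length was taken, so reads are approximate. The fit of the value of 1 read, the 1.2-fold count and the counting interval were tested on simulated data, and the other steps were not. That simulation drew counting error only, with the same lengths that the fit used. It thus could not show errors in those lengths or spread between cultures. The genes and lists were chosen with earlier results of these data known. All 37 genes were named. Of the other lists, those past 1.5-fold, the eIF2 kinases, Atf3, Atf5, Cebpg, Ddit4 and Slc7a11 were named by rule. Ppp1r15b was named outside this rule, as were the genes marked as named after their values were seen. Some genes of these lists are not reported here. Alternatives were other pseudocounts, filters, scalings and thresholds. Python 3.11.15, numpy 2.4.6, pandas 2.3.3 and scipy 1.17.1 were used.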

Additional observations from a re-analysis of the deposited data

How the results depend on the processing

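No paired analysis was possible because there is 1 library for PBS and 1 for oxalate, so no replicate could be left out either. The 3 genes higher at least 1.2-fold became 1 at 1.5-fold and 0 at 2-fold, since these thresholds are stricter. With a pseudocount of 0.1 or 0.001, or after rescaling to the same FPKM sum (factor 1.01), Chac1 joined them, which made 4. Without a filter, with the filter at 5 FPKM and after rescaling by the median ratio, the count was 3. The count of lower genes was 0 under each of these settings. Shares of all genes are given here for the fold thresholds only. The counts under the other pseudocounts, filters and scalings thus have no background beside them. The median of the other targets went from -0.12 to -0.055 without a filter, since Vldlr and Fgf21 then enter. With the filter at 5 FPKM, which drops Trib3 and Sesn2, the stress factor median went from 0.11 to 0.18. After rescaling to the same FPKM sum, the enzyme median went from 0.018 to 0.038, and the transporter (-0.018 to 0.0022) and tRNA synthetase (-0.0083 to 0.012) medians changed sign. All 148 values of single genes under the other pseudocounts and scalings stayed within the counting interval's half-width of the value reported. For Vldlr and Fgf21 that half-width is so wide that this says little. With a pseudocount of 0.001 Vldlr went from -0.055 to -1.54 and Fgf21 from 0.027 to 0.57. Depth limits Vldlr and Fgf21, with an estimated 2 to 11 reads.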

Other observations

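Genes of amino acid sensing and of the mTORC1 pathway, a list of 25 with 21 past the filter, held 4 genes higher at least 1.2-fold (19.0%) and 0 lower, beside 4.75% and 5.19% of all genes tested. The list was drawn up with earlier results of these data known, so this share is not a test. These 4 genes were named after their values were seen. Flcn, which encodes a regulator of the Rag GTPases, had 11.20 FPKM under PBS and 15.60 under oxalate (log2 difference 0.44). Sesn1, a relative of the leucine sensor Sesn2, was at 3.96 and 5.10 FPKM (0.30), in the direction opposite to Sesn2. Mtor, which encodes the kinase itself, was at 17.17 and 21.01 FPKM (0.28), and Lamtor5, a subunit of the lysosomal Ragulator complex, at 26.88 and 32.51 FPKM (0.27). The list median was 0.041, with 12 above 0 and 9 below, without replicates to check it. Of all genes tested, 50.6% lay above 0.

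Of the 17 mitochondrial tRNA synthetases, all past the filter, 13 were above 0, beside 50.6% of all genes tested, and the median log2 difference was 0.041. At 1.2-fold 1 was higher, Wars2, and 1 lower, Pars2 (log2 difference -0.90). Wars2, the mitochondrial tryptophan enzyme, named after its values were seen, was at 7.62 FPKM under PBS and 9.40 under oxalate (0.27), beside 0.23 for the cytosolic Wars. Among the other amino acid transporters 11 of 18 had a mean FPKM under 1. Slc38a10, named after its values were seen, was at 47.91 and 65.19 FPKM (0.44), and Slc38a7, named in the same way, at 6.02 and 4.83 FPKM (-0.27).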
